A study of Mus musculus with 8 samples.

Results

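The genes described here mark the cells of brain blood vessels. They are 37 genes given by symbol: 26 of endothelial cells, which line the vessel, 6 of pericytes, which wrap capillaries, 3 of the contractile smooth muscle of larger vessels, and 2 chains of the collagen of the vascular basement membrane. Each was matched to its Ensembl identifier in a count table of 53379 mouse genes, of which 16914 had enough counts to be tested, including all 37. The table holds bulk RNA sequencing of the cingulate gyrus, labelled cingulate cortex, from untreated male mice on the C57BL/6 background. There were 4 samples of *Mvp*+/+ mice (WT) and 4 of *Mvp*-/- mice (Mvp KO), and the age of the mice at sampling is not given in the sources used here. *Mvp* encodes the major vault protein, the main component of the vault particle. In the Mvp KO line a gene trap from 1 clone, a β-GEO cassette with a polyadenylation signal, sits in the first intron of *Mvp* in every cell, so the loss is not limited to vessels. The study asked what the loss of *Mvp* changes in the transcripts of this region. The study's methods state that its replicates were biological.

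Brain endothelial cells form the blood-brain barrier: tight junctions seal the gaps between them, selected transporters carry nutrients in, and efflux pumps return drugs and toxins to the blood. Pericytes share the basement membrane with the endothelium and depend on PDGF signaling from it, while arteries and arterioles carry a coat of smooth muscle rich in actin and its regulators. In bulk tissue, fewer cells of a type and less RNA per cell cannot be told apart.

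Levels are CPM, counts relative to the library's TMM-scaled total, and differences are log2 fold changes of Mvp KO minus WT from edgeR's quasi-likelihood test with its standard error (SE). The Benjamini-Hochberg adjustment of p covered every gene tested. *Mvp* itself was at 6.83 ± 1.0 CPM in WT and 1.63 ± 0.334 CPM in Mvp KO (SD, n = 4 each). The log2 fold change was -2.06 (SE 0.19, adjusted p = 0.0162 by edgeR's quasi-likelihood test), in the direction of the labels. That call was lost in 6 of the 8 fits that left out 1 sample, with log2 fold changes between -2.22 and -1.99 over all 8. With all samples, *Mvp* also passed in DESeq2's Wald test (adjusted p = 7.99e-22) and in limma voom (adjusted p = 0.00123). Its genotypes did not overlap. Transcript counts of *Mvp* did not reach 0 in Mvp KO, where each sample held at least 43 counts and the fitted level was 0.240 of that in WT. Library totals were between 28456504 and 42854368 counts. The libraries were not alike in ways the labels do not give. WT replicate 4 stood apart on the first principal component, which held 46.0% of the variance, with a score of 71.5 where the other 7 samples lay between -20.4 and -2.78. It had the highest level of 8 of 10 immediate early genes and of 8 of 10 neuronal markers. Mvp KO replicate 1 had the highest level of all 8 oligodendrocyte genes and of all 8 tested fibroblast genes. Beside some of the values that rest most on either sample, the value without it is given. The neuronal marker *Snap25* was at 2745 to 3786 CPM, while the choroid plexus marker *Ttr* was at 0.868 to 4.35 CPM. These values do not test the cortical region that the label names.

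None of the 37 genes passed an adjusted p of 0.05, by edgeR's quasi-likelihood test, DESeq2's Wald test or limma voom, and their lowest adjusted p by edgeR was 0.969. Over all genes, 0.00591% passed in edgeR, which was *Mvp* alone, and 0.00651% in DESeq2. At an unadjusted p under 0.05, 1 of the 37 passed in edgeR, *Notch3*, against 1.56% of all genes, 0.863% lower and 0.698% higher in Mvp KO. The count was 1 in DESeq2 (1.17% of all genes) and 3 in limma voom (3.28%). It was 3 without WT replicate 4 (1.34%) and 3 with the replicate number as a block (1.94%). The 3 without WT replicate 4 were *Ocln*, *Slco1c1* and *Ly6a*, so leaving it out also enlarged some differences. Their log2 fold changes were then -0.25, -0.30 and -0.32, where all samples gave -0.10, -0.19 and -0.15. The median log2 fold change of the 37 genes was -0.076, beside 0.00 over all genes. The fold change was below 0 for 26 of them (70.3%) and for 50.0% of all genes. Without WT replicate 2, whose levels of 34 of the 37 genes were above the gene's mean, the median turned to 0.03, so 1 library set its direction. The 95% interval lay within 1.5-fold in either direction for 22 genes (59.5%), beside 64.5% of all genes. Those 22 were 18 of 26 endothelial and 4 of 6 pericyte genes, with none of the smooth muscle or collagen genes.

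**Figure D1:**
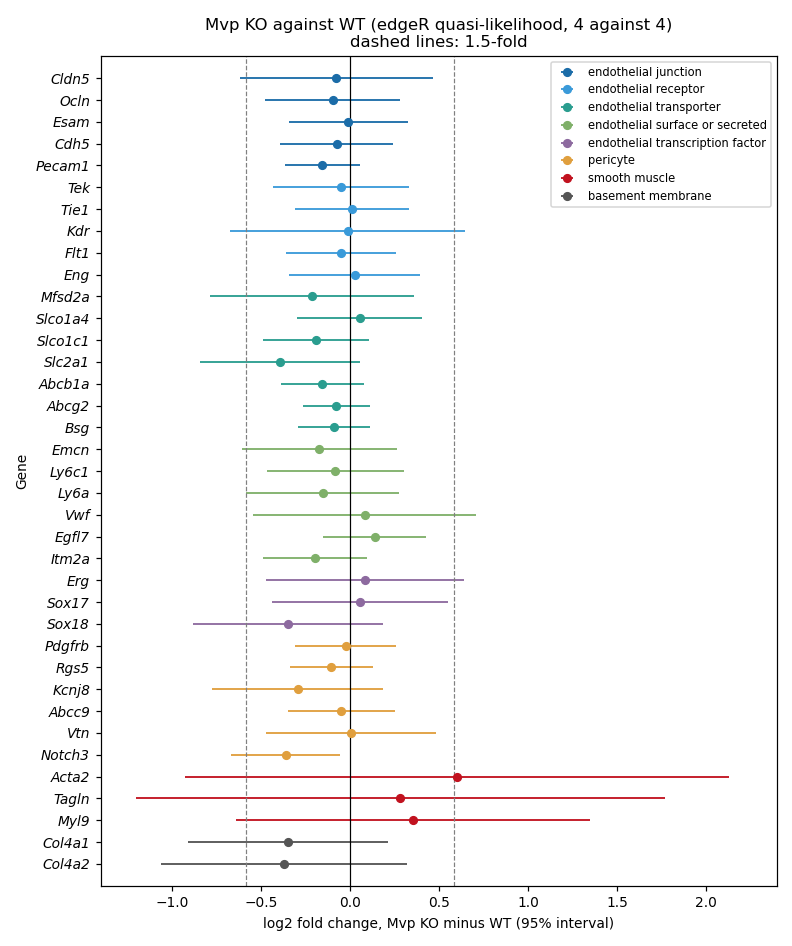
Log2 fold change (x axis, Mvp KO minus WT) of each of the 37 genes (y axis), with its 95% interval from edgeR; colors mark the role groups and dashed lines mark 1.5-fold. All intervals but that of *Notch3* cross 0, and the intervals of *Acta2*, *Tagln* and *Myl9* are the widest.

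Summed over the 26 endothelial genes, levels were 1079 ± 67.3 CPM in WT and 992 ± 52.5 CPM in Mvp KO (SD, n = 4 each). The ranges met, from 1022 to 1175 CPM in WT and from 939 to 1045 CPM in Mvp KO. The 6 pericyte genes summed to 228 ± 25.0 CPM in WT and 215 ± 31.3 CPM in Mvp KO. The smooth muscle genes summed to 47.2 ± 15.6 CPM in WT and 63.7 ± 57.0 CPM in Mvp KO, with an SD in Mvp KO nearly as large as the mean. Among samples, WT replicate 2 held the highest level of 19 of the 37 genes, and WT replicate 4 the lowest level of 12. In Mvp KO, replicates 3 and 4 lay below the gene's mean for most genes, with 6 and 5 of the 37 above it.

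**Figure D2:**
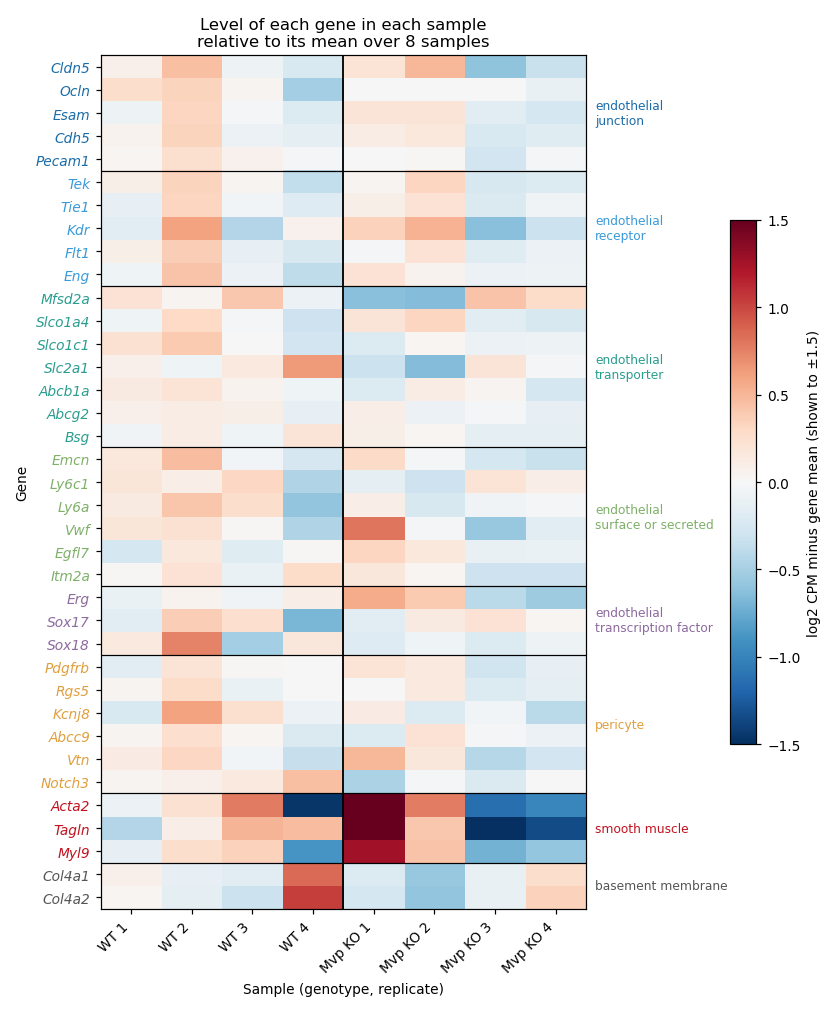
Each row is a gene, each column a sample, and color is the log2 CPM minus the mean of that gene over the 8 samples, shown to a limit of ±1.5; horizontal lines part the role groups. The deepest colors are in the smooth muscle rows, with Mvp KO replicate 1 high and Mvp KO replicates 3 and 4 low, and in the collagen rows of WT replicate 4.

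Per length (RPKM, CPM per 1000 exonic bases), the levels of the 37 genes ran from *Bsg* at a mean of 186 to *Vwf* at 0.904. *Bsg*, or basigin, is a partner of lactate transporters that many other brain cells also make. After it came *Slc2a1*, the glucose transporter GLUT1, at 36.1, *Itm2a* at 29.99, *Vtn* at 29.6 and *Rgs5* at 24.3. Ranges over the 8 samples overlapped between *Slc2a1* and *Itm2a*, from 22.3 to 54.4 and from 24.0 to 36.0, so the order of those neighbours was within their spread. *Bsg* stood clear of all others, with a lowest sample at 167 RPKM. The lowest count of any of the 37 genes in any sample was 70, for *Kcnj8*, so none was near 0 in any sample.

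**Figure D3:**
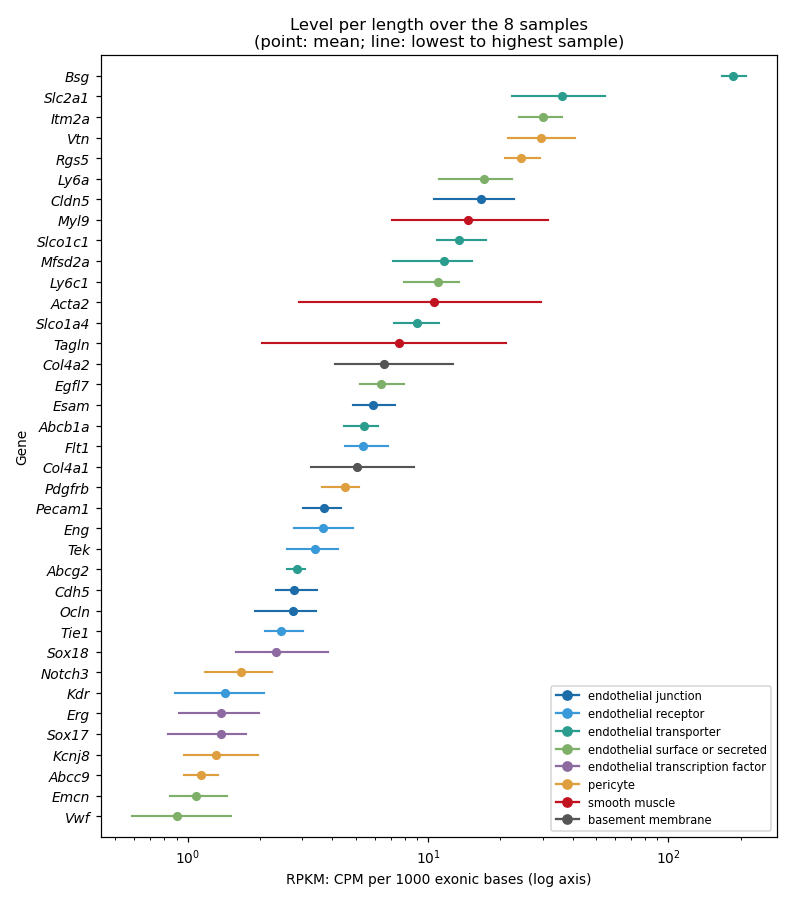
Level per length of each gene in RPKM (x axis, log scale) in order of the mean; points are means over the 8 samples and lines run from the lowest to the highest sample. *Bsg* lies apart at the top, and the lines of *Acta2*, *Tagln* and *Myl9* are the longest.

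Junction genes differed little between genotypes. *Cldn5*, the main claudin of brain endothelial tight junctions, was at 24.2, 31.2, 21.7 and 19.6 CPM in WT replicates 1 to 4 and at 26.3, 32.2, 15.05 and 18.2 CPM in Mvp KO replicates 1 to 4. The genotypes overlapped throughout, and the log2 fold change was -0.08 (SE 0.24). *Pecam1*, an adhesion molecule between endothelial cells, was at 23.4, 27.0, 24.0 and 22.6 CPM in WT and at 22.8, 23.1, 18.8 and 22.4 CPM in Mvp KO. Its log2 fold change was -0.15 (SE 0.09, adjusted p = 0.969 by edgeR), and only 2 Mvp KO samples exceeded the lowest WT sample. The others, *Ocln* (a tight junction protein), *Esam* (an adhesion molecule) and *Cdh5* (VE-cadherin of the adherens junction), had log2 fold changes between -0.10 and -0.01.

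The receptors of endothelial growth factors gave the smallest differences. *Tek*, the angiopoietin receptor TIE2, was at 16.7, 19.9, 16.2 and 12.2 CPM in WT and at 16.2, 19.7, 13.3 and 13.6 CPM in Mvp KO, and its log2 fold change was -0.05 (SE 0.17). *Tie1*, its relative, was at 0.01 (SE 0.14) on the log2 scale, and *Eng*, the TGF-beta co-receptor endoglin, at 0.03 (SE 0.16). *Kdr* and *Flt1* encode VEGF receptors, and their log2 fold changes were -0.01 (SE 0.29) and -0.05 (SE 0.14). All 5 receptors were highest in WT replicate 2. *Kdr* varied 2.35-fold between its lowest and highest sample, so its interval reached 1.5-fold in both directions.

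Among transporters, *Slc2a1* gave the lowest log2 fold change of the 37 genes, -0.39 (SE 0.20, adjusted p = 0.969 by edgeR). It was at 129.9, 117, 136 and 191 CPM in WT and at 98.3, 78.2, 139.9 and 121 CPM in Mvp KO. WT replicate 4 was the highest sample and Mvp KO replicates 1 and 2 were the lowest, while Mvp KO replicates 3 and 4 lay within the WT range. Without WT replicate 4 its log2 fold change was -0.22. *Mfsd2a*, the carrier of docosahexaenoic acid that keeps transcytosis low at the barrier, was at 29.6, 26.1, 33.5 and 23.8 CPM in WT and at 16.3, 16.1, 34.2 and 30.8 CPM in Mvp KO. Its Mvp KO samples therefore held a low pair, replicates 1 and 2, and a pair that reached the highest WT values, with a log2 fold change of -0.21 (SE 0.25). Without Mvp KO replicate 1 that value was -0.06.

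The efflux pumps *Abcb1a* (P-glycoprotein) and *Abcg2* (breast cancer resistance protein) had log2 fold changes of -0.15 (SE 0.10) and -0.08 (SE 0.08). *Abcg2* was the steadiest of the 37 genes, 1.18-fold between its lowest and highest sample, and 90.5% of all tested genes varied as much or more. *Slco1a4* and *Slco1c1*, carriers of organic anions and of thyroid hormone, gave 0.05 (SE 0.16) and -0.19 (SE 0.13), and *Bsg* -0.09 (SE 0.09). Summed over the 7 transporter genes, WT samples held 671 to 750 CPM and Mvp KO samples 615 to 649 CPM, without overlap. That sum is mostly *Bsg*, which many other brain cells also make, and *Slc2a1*, and each of these overlapped between genotypes. The sums of all other role groups overlapped, and no test was made of the transporter sum.

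Among surface and secreted proteins of endothelium, *Emcn*, the sialomucin endomucin of capillaries and veins, was at 6.43, 7.92, 5.59 and 4.83 CPM in WT and at 7.01, 5.66, 4.76 and 4.56 CPM in Mvp KO, overlapping, with a log2 fold change of -0.17 (SE 0.19). *Vwf*, the clotting factor stored by endothelial cells of larger vessels, was highest in Mvp KO replicate 1 at 24.3 CPM, where the other 7 samples lay between 9.39 and 16.3 CPM. Its log2 fold change of 0.08 turned to -0.26 without that sample. *Egfl7*, a secreted regulator of vessel growth, had the highest fold change of the endothelial genes, 0.14 (SE 0.13), and 9.41% of its exonic bases are shared with genes on the same strand, *Gm20532* and *Mir126a*. *Ly6a* and *Ly6c1*, GPI-anchored surface proteins, and *Itm2a*, a membrane protein, lay between -0.20 and -0.08. Of related genes, *Ly6c2*, a relative of *Ly6c1*, had at most 2 counts in a sample. *Abcb1b*, a relative of *Abcb1a*, was at 1.84 to 4.58 CPM, with overlapping genotypes and a log2 fold change of 0.47 (SE 0.26).

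Of the endothelial transcription factors, *Erg*, an ETS factor that maintains endothelial identity, was at 4.33, 4.81, 4.49 and 4.98 CPM in WT and at 6.89, 6.10, 3.498 and 3.19 CPM in Mvp KO. The WT samples lay inside the gap between the high and the low Mvp KO pair, so the means were close, with a log2 fold change of 0.08 (SE 0.25). *Sox17* and *Sox18*, factors of arterial and early endothelial development, gave 0.06 (SE 0.22) and -0.35 (SE 0.24). *Gm37587* lies opposite 16.9% of the exonic bases of *Sox17*, and whether the counting used strand is not given in the sources used here.

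Among pericyte genes, *Notch3* was the only one of all 37 whose genotypes did not overlap, which was true of 1.52% of all genes tested, and of 0.692% with Mvp KO lower. *Notch3* encodes the Notch receptor of pericytes and smooth muscle. It was at 13.7, 14.0, 14.7 and 18.1 CPM in WT and at 9.53, 12.98, 11.4 and 13.2 CPM in Mvp KO. The gap between the lowest WT and the highest Mvp KO sample was 13.7 against 13.2 CPM, small beside the spread within each genotype. Its log2 fold change was -0.36 (SE 0.14, 95% interval -0.67 to -0.06), with an unadjusted p of 0.0248 and an adjusted p of 0.969 by edgeR's quasi-likelihood test across all genes, so it did not pass the correction. *Notch3* was highest in WT replicate 4 and lowest in Mvp KO replicate 1. Its log2 fold change was -0.26 without the former, -0.27 without the latter and -0.17 without both, and in none of these fits was its unadjusted p under 0.05. With all samples, its unadjusted p was 0.0181 by DESeq2's Wald test and 0.00859 by limma voom with sample weights. The adjusted p values of *Notch3* there were 0.9998 and 0.9997. *Gm17276* lies opposite 6.03% of its exonic bases.

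*Pdgfrb*, the PDGF receptor that defines pericytes, was at 21.9, 28.2, 24.9 and 24.5 CPM in WT and at 28.2, 27.2, 19.9 and 22.5 CPM in Mvp KO. The genotypes overlapped over almost the whole range, with a log2 fold change of -0.02 (SE 0.13). *Rgs5*, a regulator of G-protein signaling, gave -0.11 (SE 0.10), and *Vtn*, the secreted matrix protein vitronectin, 0.01 (SE 0.21). *Kcnj8* and *Abcc9*, the pore and the regulatory subunit of the vascular ATP-sensitive potassium channel, lie on 1 strand of chromosome 6 with 16247 bases between them (GRCm38). Their log2 fold changes were -0.29 (SE 0.21) and -0.05 (SE 0.13).

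The contractile genes of smooth muscle varied far more between samples than any other of the 37. *Acta2*, smooth muscle actin, was at 16.5, 20.7, 30.4 and 6.38 CPM in WT and at 65.0, 30.02, 8.05 and 8.95 CPM in Mvp KO. *Tagln*, the actin-binding protein transgelin, was at 8.70, 12.7, 16.9 and 16.3 CPM in WT and at 41.8, 15.6, 4.05 and 4.63 CPM in Mvp KO. *Myl9*, a regulatory light chain of myosin, was at 14.1, 18.3, 19.5 and 8.22 CPM in WT and at 36.7, 20.5, 9.34 and 10.2 CPM in Mvp KO. All 3 were highest in Mvp KO replicate 1 and low in Mvp KO replicates 3 and 4, and *Acta2* and *Myl9* were lowest in WT replicate 4, so that the spread within Mvp KO exceeded the difference between genotypes. The highest sample was 10.2-fold above the lowest for *Acta2*, 10.3-fold for *Tagln* and 4.46-fold for *Myl9*. Over all tested genes with no sample at 0 the median of that ratio was 1.53, and over the 37 genes it was 1.76.

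The log2 fold changes were 0.60 (SE 0.68) for *Acta2*, 0.28 (SE 0.66) for *Tagln* and 0.35 (SE 0.44) for *Myl9*. Without Mvp KO replicate 1 they turned to -0.23, -0.75 and -0.16, so 1 library set the direction. *Acta2* and *Myl9* put 6 of the 8 samples at the same rank. *Acta2* and *Tagln* shared the rank of 2 of the 8, but without WT replicate 4 their order over the other 7 samples was the same, with 0 ranks that differed, against 2 for *Acta2* and *Myl9*. The ratio of *Tagln* to *Acta2* ran from 0.503 in Mvp KO replicate 3 to 2.55 in WT replicate 4. *Pcsk7*, at 21.7 to 26.2 CPM, and *Gm48529* lie opposite 67.9% of the exonic bases of *Tagln*. Their part in that ratio was not tested.

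Oligodendrocyte and fibroblast markers were, like the contractile genes, highest in Mvp KO replicate 1. The summed astrocyte and neuronal markers were lowest in that sample, at 4520 and 10139 CPM. The 8 oligodendrocyte genes, with *Mbp* (myelin basic protein) as the defining marker, summed to 1723, 2159, 2786 and 1317 CPM in WT and to 5636, 3854, 1942 and 1518 CPM in Mvp KO. All 8 were highest in Mvp KO replicate 1. The fibroblast genes, with *Col1a1* (type I collagen) as the defining marker, summed to 65.9, 79.6, 65.8 and 20.4 CPM in WT and to 131, 47.0, 33.4 and 56.9 CPM in Mvp KO. Over the other samples the fibroblast sums did not keep the order of *Acta2*. *Dpep1* of the fibroblast list was at 0 in every sample. Of the interferon response genes, 9 of 10 were highest in Mvp KO replicate 1 too, and *Myh11*, smooth muscle myosin, was at 30.6 CPM there and at 3.62 to 15.1 CPM in the other 7 samples. The part of tissue makeup in these levels was not tested. Of the other 34 genes, *Vwf*, *Egfl7*, *Erg*, *Pdgfrb* and *Vtn* were also highest in that sample, while *Cldn5* and *Rgs5* there were within the range of the other samples.

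**Figure D4:**
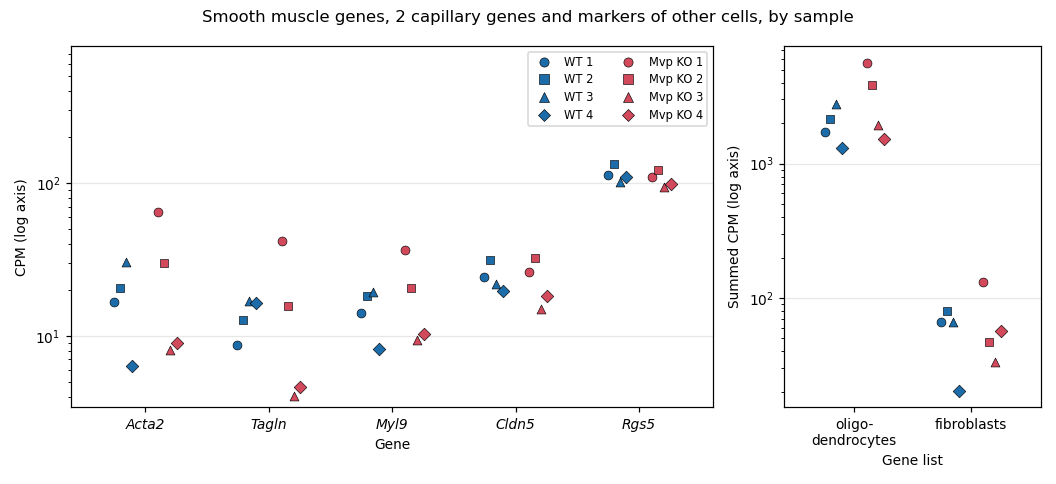
CPM of 5 genes (left, log axis) and summed CPM of 2 marker lists (right, log axis) in each of the 8 samples, with WT in blue, Mvp KO in red and the replicate number as the marker shape. Mvp KO replicate 1 (red circle) is highest for *Acta2*, *Tagln*, *Myl9* and both lists, and not for *Cldn5* or *Rgs5*.

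Smooth muscle genes are known targets of serum response factor, which binds the CArG box. The stretches below come from the 250 bases before the RefSeq start site (GRCm38.p6) of *Acta2* and *Myl9*, each read on the strand of its gene, and are shown because those genes kept nearly the same order over samples. Capitals mark a CArG box, in its strict form or with a single G or C in its A/T core. The pattern reads the same on both strands.
*Acta2*, chr19:34255438-34255467, minus strand, a single G or C: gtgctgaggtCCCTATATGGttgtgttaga
*Acta2*, chr19:34255388-34255417, minus strand, a single G or C: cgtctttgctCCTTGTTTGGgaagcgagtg
*Myl9*, chr2:156775293-156775322, plus strand, strict: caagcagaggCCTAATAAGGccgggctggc
*Myl9*, chr2:156775355-156775384, plus strand, a single G or C: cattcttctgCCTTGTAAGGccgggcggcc
The boxes end 74 and 24 bases before the start site of *Acta2* and 151 and 89 bases before that of *Myl9*. GENCODE vM21 places the start of *Acta2* farther upstream, so both of its boxes fall inside the span of that gene model, while those of *Myl9* lie upstream of its start in both annotations. Of 32851 windows of this length in the table, 1.47% hold the strict box and 7.24% the form with a single G or C. Those shares are per window, while the counts that follow are per gene. A gene with several windows was counted if any of them held the box, so the shares and counts are not on the same scale. Of the 37 genes, 27 have a window, 1 with the strict box, *Myl9*, and 7 with the other form. Those 7 are *Acta2*, *Myl9* and the endothelial genes *Egfl7*, *Eng*, *Kdr*, *Ocln* and *Slco1a4*, so that form is not particular to contractile genes. *Tagln* has no window.

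The collagen chains *Col4a1* and *Col4a2*, which join in the type IV collagen of the basement membrane, moved together. *Col4a1* was at 38.1, 33.2, 32.3 and 65.5 CPM in WT and at 31.5, 24.4, 33.5 and 43.4 CPM in Mvp KO. *Col4a2* was at 41.8, 37.1, 32.8 and 83.8 CPM in WT and at 34.1, 27.2, 37.9 and 52.0 CPM in Mvp KO. Both were highest in WT replicate 4, next in Mvp KO replicate 4 and lowest in Mvp KO replicate 2. The ratio of *Col4a2* to *Col4a1* stayed between 1.02 and 1.28, and 6 of the 8 samples had the same rank for both. The log2 fold changes were -0.35 (SE 0.25) and -0.37 (SE 0.31), and without WT replicate 4 they were -0.05 and 0.02.

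The chains are coded head to head on chromosome 8, with *Col4a2* starting at base 11312805 of the plus strand and *Col4a1* at base 11312826 of the minus strand, so that their first 22 bases are the same DNA read from opposite strands. Because the pair moved together, that stretch is shown here from RefSeq, with the shared bases in capitals.
chr8:11312801-11312830, plus strand: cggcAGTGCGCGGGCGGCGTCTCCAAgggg

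In WT replicate 4, where the collagens, *Slc2a1*, *Notch3*, *Bsg* and *Itm2a* were highest, the immediate early genes, such as *Fos*, summed to 2461 CPM. They summed to 591, 1230 and 887 CPM in the other WT samples and to 1441, 1612, 797 and 1088 CPM in Mvp KO. The red blood cell genes were all lowest there, summing to 17.0 CPM against 24.9 to 57.1 CPM elsewhere. *Mfsd2a* did not share the pattern, at 23.8 CPM there. The part of these differences in the vascular levels was not tested.

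**Figure D5:**
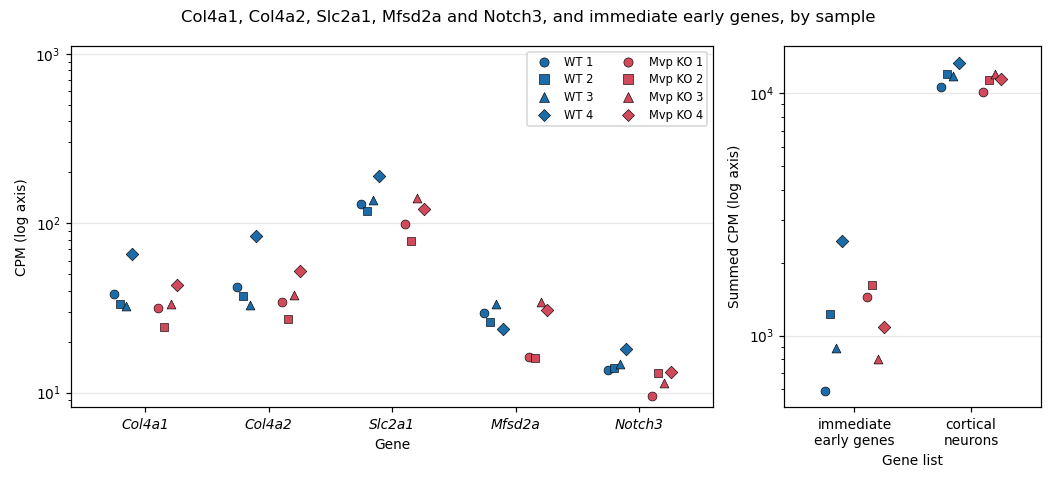
CPM of 5 genes (left, log axis) and summed CPM of 2 marker lists (right, log axis) in each of the 8 samples, with WT in blue, Mvp KO in red and the replicate number as the marker shape. WT replicate 4 (blue diamond) is highest for *Col4a1*, *Col4a2*, *Slc2a1*, *Notch3* and both lists.

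Leaving out WT replicate 4 and Mvp KO replicate 1 together, a choice made after the values were seen, 0 of the 37 genes passed an adjusted p of 0.05 by edgeR and 6 passed an unadjusted p under 0.05, against 2.57% of all genes. Those 6 were *Ocln*, *Slco1c1*, *Abcg2*, *Emcn*, *Ly6a* and *Vwf*, all endothelial and all lower in Mvp KO, and *Notch3* was not among them. WT replicate 4 was the lowest WT sample for all 6. Mvp KO replicate 1 was the highest Mvp KO sample for *Abcg2*, *Emcn*, *Ly6a* and *Vwf*. The shared direction therefore follows in part from which samples were left out. *Ly6a* gave a log2 fold change of -0.38, *Emcn* -0.41 and *Vwf* -0.39, where the 8 samples gave -0.15, -0.17 and 0.08. The median of the 37 genes was then -0.17. Their adjusted p in that edgeR fit was 0.9997, so none of these differences passed the correction.

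The ligands, receptors and effectors of the pathways that act on these cells were read from lists of other genes. No gene of any of the 19 lists, which hold 192 genes, passed an adjusted p of 0.05 in edgeR. At an unadjusted p under 0.05, 1 of them passed, a smaller share than the 1.56% of all genes tested. It was *Tgfbr1*, a TGF-beta receptor, at a log2 fold change of -0.18 (SE 0.08). The median of the 13 genes of its list was -0.05, and -0.19 without Mvp KO replicate 1. In the VEGF list the median of 8 genes was -0.06, and *Vegfa*, the main ligand of *Kdr*, was at -0.18 (SE 0.17). Without WT replicate 4 the median was 0.003 and *Vegfa* was at -0.003. The smallest p of that list was that of *Nrp1*, a VEGF co-receptor, which was at 80.3 CPM in WT replicate 4 and at 17.9 to 26.8 CPM in the other 7 samples. Its log2 fold change of -0.64 (SE 0.44) turned to 0.11 without that sample. Among angiopoietin and PDGF ligands, *Pdgfb*, the endothelial ligand of *Pdgfrb*, gave -0.29 (SE 0.20), and -0.10 without WT replicate 4, where it was highest. Of that list 6 of 7 genes were tested, with a median of -0.15, which was -0.002 without that sample, and *Angpt4* was too low.

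In the vascular Notch list, *Hey2*, a target of Notch signaling, gave -0.41 (SE 0.22), and -0.17 without WT replicate 4. The median of 9 genes was 0.03, and -0.09 without Mvp KO replicate 1. The Wnt pathway that induces the barrier had a median of -0.01 over 13 genes, which was -0.07 without WT replicate 4, and *Adgra2* (GPR124), a co-receptor for *Wnt7a* and *Wnt7b*, was at 75.4 CPM in WT replicate 4 against 11.2 to 16.0 CPM elsewhere. Its log2 fold change of -1.12 (SE 0.56) was -0.08 without that sample. A further 20 endothelial genes had a median of -0.11, with *Abcc4*, an efflux pump, at -0.26 (SE 0.14), or -0.15 without WT replicate 4, and the arterial and venous genes a median of 0.05, with *Vcam1*, an adhesion molecule, at -0.16 (SE 0.09). Of 15 more mural genes, *Pln*, the calcium pump inhibitor phospholamban, gave 0.76 (SE 0.56), or 0.17 without Mvp KO replicate 1, and the median was 0.01. Of 12 more basement membrane genes, *Sparc*, a collagen-binding glycoprotein, gave -0.29 (SE 0.15), or -0.12 without WT replicate 4, and the median was 0.00. Without Mvp KO replicate 1 the medians of the arterial and venous, mural and basement membrane lists were -0.08, -0.16 and -0.14, so 1 library could set their sign.

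Markers of other cells were below the threshold in every list, by the same edgeR test. Astrocytes, whose endfeet cover the vessels, had a median of -0.12, with *Aldh1l1* at -0.15 (SE 0.09) and *Aqp4*, the endfoot water channel, at 90.2 to 125 CPM. Microglia had a median of -0.11, with *Cx3cr1* at 43.2 to 53.9 CPM. Perivascular macrophages had a median of -0.20, with *Mrc1* at 1.21 to 5.16 CPM and *Pf4* at -0.53 (SE 0.61). Without WT replicate 4 these were -0.41 for the median and -0.89 for *Pf4*, and without Mvp KO replicate 1 they were -0.40 and -0.93. Oligodendrocytes had the highest median, 0.67, with *Mbp* at 540 to 2219 CPM, and a median of 0.29 without Mvp KO replicate 1. Fibroblasts had a median of 0.26, with *Lum* at 0.48 (SE 0.54), *Col1a1* at 1.08 to 4.72 CPM, and *Igf2* and *Dpep1* too low to test. Without Mvp KO replicate 1 that median was -0.34 and *Lum* was at -0.27, and without WT replicate 4 the median was -0.12. Neurons had a median of -0.12, with *Gad2* at -0.60 (SE 0.34). *Gad2* was at 545 CPM in WT replicate 4 and at 154 to 205 CPM in the other 7 samples, and without that sample it was at -0.06 and the neuronal median at -0.003. Red blood cells had a median of 0.04, with *Hbb-bs* at 0.07 (SE 0.33) and *Hba-a1* at 2.29 to 10.5 CPM. Choroid plexus genes had a median of 0.04, with *Ttr* at 0.71 (SE 0.48), and *Folr1* and *Otx2* too low to test. Immediate early genes had a median of 0.12, with *Dusp1* at 0.61 (SE 0.34) and *Fos* at 32.5 to 153 CPM, and interferon response genes 0.12, with *Irf7* at -0.46 (SE 0.29) and *Ifit1* at 0.999 to 6.01 CPM. Without WT replicate 4 the medians of the red blood cell, choroid plexus and immediate early lists were -0.24, -0.20 and 0.67, and *Irf7* was at -0.21. Without Mvp KO replicate 1 the medians of the red blood cell, choroid plexus, immediate early and interferon lists were -0.10, -0.31, 0.02 and -0.24.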

How the data were processed

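The sources describe total RNA of the cingulate gyrus, from samples with an RNA integrity number of at least 8, made into stranded mRNA libraries and read as single ends on an Illumina sequencer. The authors deposited raw counts per Ensembl gene. Their processing notes name bcl2fastq 2.17.1.14, cutadapt 1.10, Bowtie2 2.2.8, STAR 2.5.3a (mm10) and HTSeq 0.6.1p1, and the mode and strand setting of the counting are not given in the sources used here. Symbols, exon lengths and overlaps came from GENCODE vM21 (GRCm38), and start-site sequences from RefSeq (GRCm38.p6).

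The test was that of edgeR 4.0.16 (R 4.3.3): filterByExpr (minimum count 10, minimum total 15), TMM scaling, estimateDisp and a robust quasi-likelihood fit of genotype on all 16914 genes tested, with Benjamini-Hochberg adjustment over them and a threshold of 0.05. The study used DESeq2, which is an alternative here. CPM, RPKM, sums and ratios are descriptions. The difference in total counts between genotypes did not pass an exact two-sided permutation test over 70 arrangements (p = 0.686, where the smallest p possible is 0.0286). No pair of samples of a genotype differed by less than 6.93 in chi-square per gene, so none was taken for a library deposited more than once. The fits were tested on simulated counts.

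The genes and lists were chosen with earlier results of these data known, so their counts are descriptions. Named were every one of the 37 genes, *Mvp*, the gene with the smallest unadjusted p and the defining marker of each other list, and any gene past the threshold, though not all of these are reported here. Values per sample were given for the first gene listed for each role, genes whose genotypes did not overlap and the 3 smallest p values. *Tagln*, *Myl9*, *Col4a2*, *Myh11* and other genes given with per-sample ranges were chosen after their values were seen. Alternatives were DESeq2 1.42.0, its size factors in edgeR, limma 3.58.1 voom with sample weights, other filters, a replicate block, a threshold of 0.1, leaving out each sample and, added after the values were seen, leaving out 2 samples together. Tables and the permutation test were made in Python 3.11.15 (NumPy 2.4.6, pandas 2.3.3, SciPy 1.17.1) and figures with matplotlib 3.10.9. Labels give no batch or date.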

Additional observations from a re-analysis of the deposited data

Results flagged for a closer look

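A sample was singled out where, in a group of 4, its gap to the nearest other sample took a share of the group's range above Dixon's 95% critical value. Of 82 groups checked, 5 were, where chance gives about 4.1. *Abcg2* was at 21.2 CPM in WT replicate 4, below the other WT samples at 24.5 to 25.0 CPM. *Ocln* was at 10.6 CPM in Mvp KO replicate 4, below the others at 11.4 to 11.5 CPM. *Pecam1* was at 18.8 CPM in Mvp KO replicate 3, below the others at 22.4 to 23.1 CPM. *Mvp* was at 2.13 CPM in Mvp KO replicate 3, above the others at 1.44 to 1.51 CPM and below every WT sample. WT replicate 2 held 42854368 counts in total, above the other WT samples at 33408202 to 34760784 counts. The cause was not tested for any of them.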

How the results depend on the processing

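No alternative moved any of the 37 genes past an adjusted p of 0.05. Over 84 results and 1252 alternative values, 1148 kept their direction and their side of the threshold or stayed within the spread between replicates, 82 changed sign, 15 moved and 7 lost their call. Of the 37 genes, 21 changed sign in at least 1 alternative, each from a fold change that had not passed the test. The cause was not tested. At an unadjusted p under 0.05 the count of the 37 genes was 3 in limma voom (3.28% of all genes) and 3 with the replicate block (1.94%). It was 6 without WT replicate 4 and Mvp KO replicate 1 together (2.57%). Over the samples left out in turn it was 0 to 3. For those fits the share of all genes was taken only without WT replicate 4 (1.34%), so the range cannot be read against a background. The count of all genes called was 2 in DESeq2, 0 with the replicate block and 0 to 1 over the samples left out. *Mvp* kept its direction, at -2.07 with the replicate block, where its call was lost, and at -2.22 to -1.99 over the samples left out. Its call was also lost in 6 of those 8 fits, the exceptions being WT replicate 4 and Mvp KO replicate 3, with adjusted p values by edgeR between 0.00446 and 0.147.

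These log2 fold changes turned sign. In limma voom they were *Tie1* at -0.11, *Eng* at -0.063, *Slco1a4* at -0.10, *Vwf* at -0.31, *Erg* at -0.16, *Sox17* at -0.068, *Vtn* at -0.25, *Acta2* at -0.83, *Tagln* at -0.98, *Myl9* at -0.45, *Col4a2* at 0.079, *Hbb-bs* at -0.34, *Lum* at -0.47, *Nrp1* at 0.082 and *Pln* at -0.30. With the replicate block they were *Vtn* at -0.021 and *Tagln* at -0.34. Without WT replicate 4 and Mvp KO replicate 1 together they were *Tie1* at -0.075, *Eng* at -0.15, *Slco1a4* at -0.082, *Vwf* at -0.39, *Erg* at -0.086, *Sox17* at -0.044, *Vtn* at -0.29, *Acta2* at -0.51, *Tagln* at -0.65, *Myl9* at -0.37, *Col4a2* at 0.066, *Gad2* at 0.015, *Hbb-bs* at -0.34, *Lum* at -0.47, *Nrp1* at 0.19 and *Pln* at -0.075. Over the samples left out in turn, the ranges were: *Tie1* from -0.065 to 0.13, *Cldn5* from -0.29 to 0.081, *Ocln* from -0.25 to 0.0049, *Esam* from -0.080 to 0.11, *Cdh5* from -0.14 to 0.034, *Tek* from -0.18 to 0.062, *Kdr* from -0.21 to 0.22, *Flt1* from -0.14 to 0.074, *Pdgfrb* from -0.10 to 0.061, *Abcc9* from -0.14 to 0.031, *Eng* from -0.079 to 0.20, *Ly6c1* from -0.22 to 0.0082, *Vtn* from -0.19 to 0.13, *Slco1a4* from -0.053 to 0.17, *Vwf* from -0.26 to 0.25, *Sox17* from -0.11 to 0.21, *Col4a2* from -0.57 to 0.022, *Hbb-bs* from -0.16 to 0.27, *Nrp1* from -0.88 to 0.11, *Erg* from -0.12 to 0.24, *Acta2* from -0.23 to 0.94, *Tagln* from -0.75 to 0.60, *Myl9* from -0.16 to 0.58, *Lum* from -0.27 to 0.74.

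Samples of the same number had correlations of their deviations from the genotype mean between -0.00671 and 0.287, and 2 of 8 samples correlated best with their own number. The numbers were therefore not taken to pair the samples, and the block changed no call of the 37 genes. The lowest count of the 37 genes in a sample was 70, and the biological coefficient of variation between samples was 18.3%, so counting error adds to that spread mainly for the lowest genes.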
